A study of Mus musculus with 6 samples.

Results

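The Fc gamma receptors bind the constant part of immunoglobulin G (IgG), and the group described here holds 6 mouse genes: Fcgr1, Fcgr2b, Fcgr3, Fcgr4, the signalling chain Fcer1g and the neonatal Fc receptor Fcgrt. They were taken by symbol from the 21955 genes in the count files, and all 6 passed the filter on low counts. Neutrophils had been taken from the dura, the tough membrane under the skull, of WT mice that had met a social threat, and their poly-A RNA was sequenced. The 6 libraries fall into 3 labelled female and 3 labelled male, all of the same genotype and all collected post exposure, and no unexposed mice are among them. The sources used here give no strain, age or number of animals, and libraries of a group need not be separate animals. A p-value therefore speaks only of variation from library to library, part of which may be technical.

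Antibody bound to a particle or a cell is read by neutrophils through these receptors, and the outcome depends on which of them is engaged. Fcgr1, Fcgr3 and Fcgr4 are activating: each pairs with the Fc receptor gamma chain, encoded by Fcer1g, whose immunoreceptor tyrosine-based activation motif (ITAM) is phosphorylated by Src-family kinases and then recruits Syk, which leads to phagocytosis, oxidative burst and degranulation. Fcgr2b carries an inhibitory motif (ITIM) in its own tail and recruits the phosphatase SHIP, encoded by Inpp5d, against that signal. Fcgrt stands apart: it binds IgG at acid pH inside endosomes, pairs with beta 2 microglobulin and returns IgG from degradation.

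Read as the sex of the mice sampled, the label female was not borne out by Y-linked transcripts. The sum of Ddx3y, Eif2s3y, Kdm5d and Uty was 328, 312 and 327 CPM (read counts scaled to library size) in the libraries labelled female, against 315, 318 and 307 CPM in those labelled male. Directions below are therefore between libraries so labelled. Total counts ranged from 18555944 to 20778410 in the libraries labelled female and from 17098026 to 18272577 in those labelled male. Mitochondrially encoded transcripts made up 6.42 to 8.49% in the libraries labelled female and 10.7 to 13.1% in those labelled male. Of the neutrophil markers, 9 of 10 had a row, and their summed level was 56653 to 72706 CPM in the libraries labelled female against 50151 to 55568 CPM in those labelled male, with none at 0. Levels are CPM after TMM (trimmed mean of M values) scaling, and the sampled RNA cannot tell fewer cells of a type from less RNA per cell.

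The receptor genes moved in different directions. In the libraries labelled female Fcgr1 and Fcgrt were lower, Fcgr3 and Fcgr4 were higher, and Fcgr2b and Fcer1g did not pass the test. Calls are adjusted p under 0.05 by edgeR's quasi-likelihood test over 11903 genes. So 4 of 6 members passed, against 13.9% of all genes tested, with 7.29% higher and 6.62% lower. The same 4 genes had groups that did not overlap, as did 30.9% of all genes, with 15.9% higher and 15% lower. The 6 were chosen with results of these data known, so the counts are a description.

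**Figure D1:**
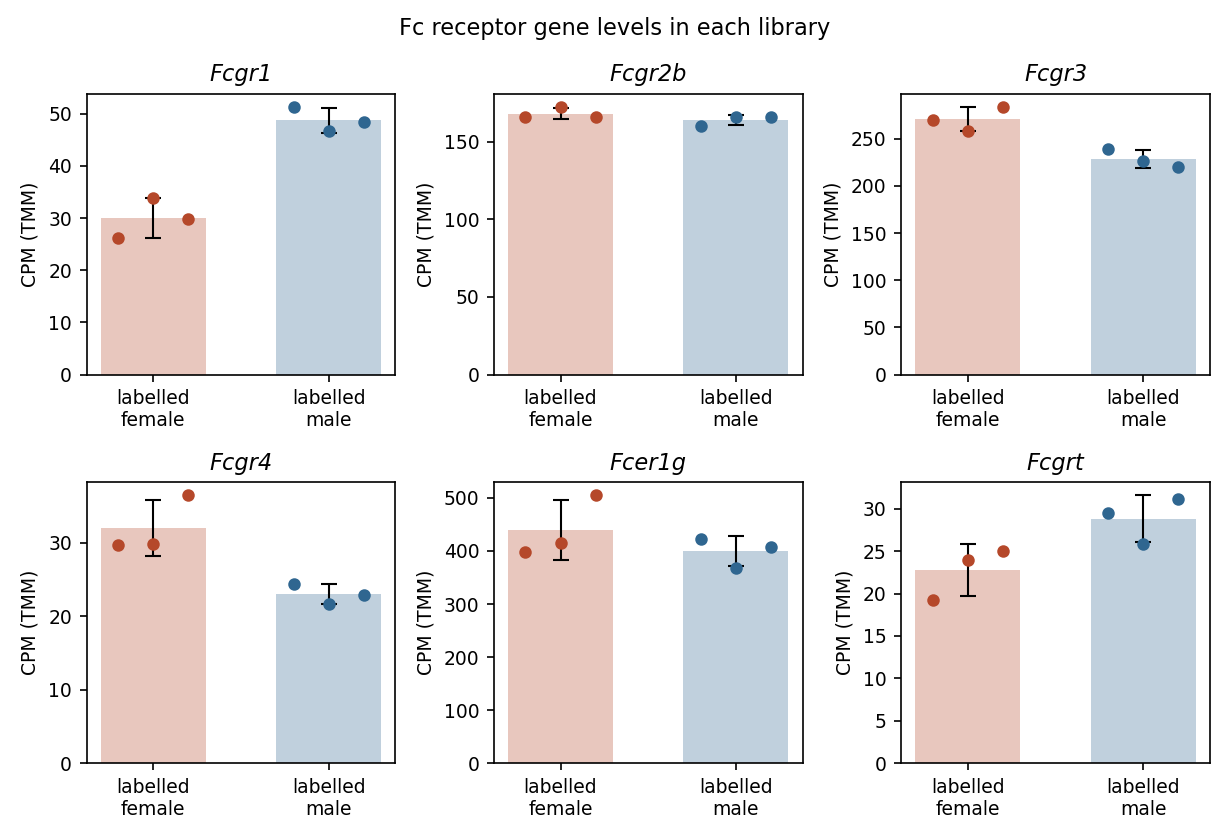
Level of each Fc receptor gene in CPM (vertical axis, from 0, a scale of its own per panel) in the 3 libraries labelled female and the 3 labelled male. Points are libraries, with replicates 1 to 3 from left to right, bars are means and error bars are SD (n = 3). The groups do not overlap for Fcgr1, Fcgr3, Fcgr4 and Fcgrt.

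Fcgr1 (ENSMUSG00000015947, chromosome 3) encodes the high-affinity IgG receptor, also called CD64, which monocytes and macrophages carry and which interferon gamma induces on neutrophils. It had 26.2, 33.9 and 29.8 CPM in the libraries labelled female, against 51.3, 46.6 and 48.3 CPM in those labelled male. Every library labelled female was below every library labelled male, by a gap wider than the range within either group. The means were 29.97 ± 3.85 CPM in the libraries labelled female and 48.7 ± 2.37 CPM in those labelled male (SD, n = 3 each), a log2 fold change of -0.70 (SE 0.089, adjusted p = 1.20e-05 by edgeR), or 1.62-fold lower. This was the largest change of the 6 and rank 133 of all genes by p. It rested on 496 to 908 counts per library. Leaving out each library in turn moved the log2 change between -0.80 and -0.61, and the call held in each of these fits.

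Fcgr3 (ENSMUSG00000059498, chromosome 1) encodes a low-affinity activating receptor, also called CD16, of neutrophils, macrophages and NK cells. It had 269.6, 259 and 284 CPM in the libraries labelled female, against 239, 226 and 220 CPM in those labelled male. The groups did not overlap, but the gap between them was narrower than the range within the libraries labelled female. The means were 271 ± 12.6 CPM in the libraries labelled female and 229 ± 9.55 CPM in those labelled male (SD, n = 3 each), a log2 change of 0.24 (SE 0.059, adjusted p = 0.00819 by edgeR), or 1.18-fold higher. The call was lost without male replicate 2 (adjusted p = 0.0509) or male replicate 3 (adjusted p = 0.0760).

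Fcgr4 (ENSMUSG00000059089, chromosome 1) encodes an activating receptor of intermediate affinity found on mouse neutrophils, monocytes and macrophages. It had 29.7, 29.8 and 36.5 CPM in the libraries labelled female, against 24.4, 21.7 and 22.9 CPM in those labelled male. Female replicate 3 was above the rest, and the other libraries labelled female were still above all 3 labelled male. Means were 32.0 ± 3.85 CPM in the libraries labelled female and 23.0 ± 1.34 CPM in those labelled male (SD, n = 3 each), a log2 change of 0.48 (SE 0.098, adjusted p = 0.00213 by edgeR), or 1.39-fold higher. Without female replicate 3 the log2 change was 0.37 (adjusted p = 0.00349), and the call held without each other library as well. Of 9 neutrophil markers, 7 also rose in the libraries labelled female, or 77.8% against 13.9% of all genes tested. Their part in the levels of Fcgr3 and Fcgr4 was not tested.

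Stretches of sequence before the annotated starts of these 3 genes are shown because Fcgr1 moved opposite to Fcgr3 and Fcgr4. They are RefSeq windows of 250 bases, 5′ to 3′ in the direction of the gene, on build GRCm38.p6, whereas the counts were made on GRCm39. Capitals mark matches on either strand to TTCNNNGAA (the gamma-activated sequence, GAS), to the interferon-stimulated response element (ISRE, searched as GAAA, any 2 bases, GAAA) or to GAGGAA (the core of PU.1 sites).
Fcgr1 (chr3:96293970-96294219, minus strand): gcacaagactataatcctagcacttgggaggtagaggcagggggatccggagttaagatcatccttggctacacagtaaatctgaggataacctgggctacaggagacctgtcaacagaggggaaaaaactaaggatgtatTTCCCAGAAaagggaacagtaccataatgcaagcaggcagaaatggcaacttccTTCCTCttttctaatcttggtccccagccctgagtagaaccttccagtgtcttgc
Fcgr3 (chr1:171059395-171059644, minus strand): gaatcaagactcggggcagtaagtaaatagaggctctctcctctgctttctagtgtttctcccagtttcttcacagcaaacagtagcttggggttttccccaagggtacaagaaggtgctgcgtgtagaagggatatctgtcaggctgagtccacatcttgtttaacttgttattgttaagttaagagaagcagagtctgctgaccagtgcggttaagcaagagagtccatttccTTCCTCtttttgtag
Fcgr4 (chr1:171018676-171018925, plus strand): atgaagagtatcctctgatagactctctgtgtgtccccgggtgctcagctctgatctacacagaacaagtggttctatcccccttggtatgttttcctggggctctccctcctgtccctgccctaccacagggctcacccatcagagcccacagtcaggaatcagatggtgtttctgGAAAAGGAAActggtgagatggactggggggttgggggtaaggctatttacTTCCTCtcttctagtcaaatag

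The Fcgr1 window held a GAS match 101 to 109 bases before the start and a PU.1 core match 50 to 55 bases before it. The Fcgr4 window held an ISRE match 64 to 73 bases and a PU.1 core match 17 to 22 bases before the start, and the matches did not overlap. The first of 2 Fcgr3 windows, the one shown, held a PU.1 core match 10 to 15 bases before the start, and neither window held a GAS or ISRE match. None of the 3 motifs was found in the windows of Fcgr2b, Fcer1g or Fcgrt. Of 32851 mouse promoter windows of the same length, 7.02% held a GAS match, 2.98% an ISRE match and 23.3% a PU.1 core match. These are matches of letters, and no binding was measured. Their part in the changes of the receptor genes was not tested.

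Fcgr2b (ENSMUSG00000026656, chromosome 1) encodes the inhibitory receptor CD32b, which B cells and myeloid cells carry. It had 166, 172 and 166 CPM in the libraries labelled female, against 160, 166 and 166 CPM in those labelled male. The groups overlapped near 166 CPM. The means were 168 ± 3.70 CPM in the libraries labelled female and 164 ± 3.31 CPM in those labelled male (SD, n = 3 each), the smallest spread relative to the mean of the 6 members in both groups. The log2 change was 0.04 (SE 0.057, adjusted p = 0.736 by edgeR), with a 95% interval of 0.944-fold to 1.11-fold. B cell markers moved in the same libraries: 7 of 9 were lower, or 77.8% against 13.9% of all genes tested. None was higher (0 at an unadjusted p under 0.05, and 0 by DESeq2 or limma-voom). The summed level of these markers was 163 to 223 CPM in the libraries labelled female against 266 to 324 CPM in those labelled male, with none at 0. Their part in the level of Fcgr2b was not tested.

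The inhibitory motif of Fcgr2b and the activating motif of Fcer1g, the opposed signals of the family, are shown as coding sequence on the sense strand from GENCODE M21 (GRCm38, chromosome 1), 5′ to 3′, with the tyrosine codons of the motif in capitals. The ITIM pattern is loose and also matched once each near the ends of the Fcgr4 and Fcer1g coding sequences.
Fcgr2b ITIM: aatacgatcaccTACtcacttctcaagcat
Fcer1g ITAM: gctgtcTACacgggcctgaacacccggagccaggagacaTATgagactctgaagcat

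Fcgr2b and Fcgr3 lie close together on chromosome 1 and share coding sequence, shown because a read that lies wholly within it matches both genes. The longest identical coding run was 129 bases, bases 278 to 406 of the Fcgr2b coding sequence and 263 to 391 of that of Fcgr3.
Shared run: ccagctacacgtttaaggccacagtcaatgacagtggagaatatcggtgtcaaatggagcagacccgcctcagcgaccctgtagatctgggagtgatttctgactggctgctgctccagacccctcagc
Of windows of 50 bases in annotated transcripts, 9.58% of those of Fcgr3 and 2.92% of those of Fcgr2b occurred in the other gene. With every other gene counted, Fcgr3 among them, the share for Fcgr2b was 4.38%. For Fcgr1, Fcgr4, Fcer1g and Fcgrt none occurred in a transcript of another gene. The treatment of shared reads in counting is unknown here, so the levels of Fcgr2b and Fcgr3 carry that uncertainty.

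Fcer1g (ENSMUSG00000058715, chromosome 1), the shared chain of the activating receptors, had 398, 415 and 505 CPM in the libraries labelled female, against 422, 368 and 408 CPM in those labelled male. The groups overlapped, and female replicate 3 stood above the other 5 libraries. The means were 439 ± 57.2 CPM in the libraries labelled female and 399 ± 28.2 CPM in those labelled male (SD, n = 3 each), a log2 change of 0.14 (SE 0.076, adjusted p = 0.253 by edgeR), with a 95% interval of 0.986-fold to 1.23-fold. Without female replicate 3 the log2 change was 0.03.

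Fcgrt (ENSMUSG00000003420, chromosome 7) had 19.3, 23.9 and 25.05 CPM in the libraries labelled female, against 29.5, 25.8 and 31.2 CPM in those labelled male. The groups did not overlap, though female replicate 3 and male replicate 2 lay close together. The means were 22.7 ± 3.07 CPM in the libraries labelled female and 28.8 ± 2.73 CPM in those labelled male (SD, n = 3 each), a log2 change of -0.34 (SE 0.11, adjusted p = 0.0360 by edgeR), or 1.27-fold lower. The call was lost without female replicate 1 (adjusted p = 0.183), female replicate 2 (0.0568), male replicate 1 (0.119) or male replicate 3 (0.177). Its partner B2m, the beta 2 microglobulin gene, averaged 1269.5 CPM in the libraries labelled female and 1354 CPM in those labelled male, a log2 change of -0.09 that did not pass (adjusted p = 0.303 by edgeR).

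**Figure D2:**
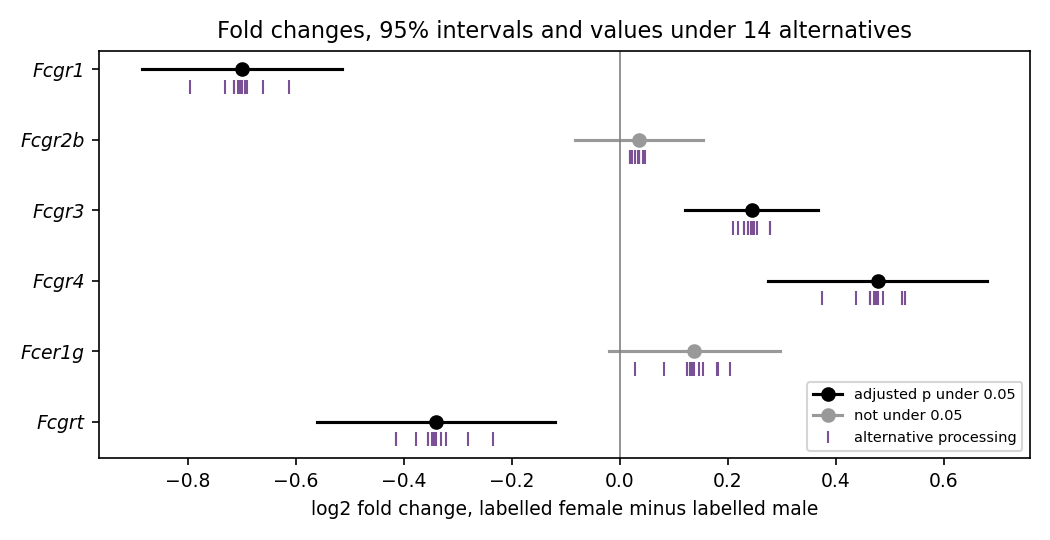
Log2 fold change of each member, libraries labelled female minus libraries labelled male (horizontal axis), with its 95% interval as a line and the values under 14 alternative settings as ticks below it. Ticks stay on the same side of 0 as the main value for all 6 genes, and the intervals of Fcgr2b and Fcer1g include 0.

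Levels of different genes were compared per kilobase of exon, with all annotated exons of a gene merged. That length was 5790 bases for Fcgr2b, 2589 for Fcgr1, 1736 for Fcgr3 and 1256 for Fcgr4. In the libraries labelled female the order was Fcer1g (503 ± 65.5 CPM per kilobase), Fcgr3 (156 ± 7.24), Fcgr2b (29.0 ± 0.639), Fcgr4 (25.5 ± 3.07), Fcgr1 (11.6 ± 1.49) and Fcgrt (10.8 ± 1.46). In those labelled male it was Fcer1g (457 ± 32.2 CPM per kilobase), Fcgr3 (132 ± 5.50), Fcgr2b (28.3 ± 0.572), Fcgr1 (18.8 ± 0.916), Fcgr4 (18.3 ± 1.07) and Fcgrt (13.7 ± 1.30). Neighbours in this order whose libraries overlapped were Fcgr2b with Fcgr4 and Fcgr1 with Fcgrt in the libraries labelled female, and Fcgr1 with Fcgr4 in those labelled male. Fcgr3 was thus the most abundant receptor in both groups. Per kilobase, Fcgr1 and Fcgr4 stood level in the libraries labelled male and apart in those labelled female. In CPM without the length, Fcgr4 and Fcgr1 averaged 32.0 and 29.97 CPM in the libraries labelled female. In those labelled male they averaged 23.0 and 48.7 CPM. Fcgr2b, at 168 CPM in the libraries labelled female and 164 CPM in those labelled male, was then well above Fcgr4. By mean CPM the order in the libraries labelled female was the same as per kilobase. In those labelled male Fcgrt, at 28.8 CPM, stood above Fcgr4, at 23.0 CPM, and the other genes kept their order. The distances between the genes, and the places of Fcgr4 and Fcgrt in the libraries labelled male, therefore depend on the length used.

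Within each library, Fcgr4 over Fcgr1 per kilobase was 2.34, 1.81 and 2.53 in the libraries labelled female, against 0.981, 0.961 and 0.976 in those labelled male. The ratio was above 1 in every library labelled female and just below 1 in every library labelled male, but its place against 1 depends on the exon lengths used. Fcgr1 was 4.65, 6.08 and 4.94% of the 4 receptors' summed level in the libraries labelled female, against 9.68, 9.27 and 9.69% in those labelled male. Fcgr3 held 69.1 to 71.3% of the sum in the libraries labelled female and 65.9 to 67.3% in those labelled male, and Fcgr4 held 10.9 to 12.5% in the libraries labelled female and 8.91 to 9.496% in those labelled male.

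The 3 activating receptors summed, over Fcgr2b, gave 6.60, 6.25 and 7.12 in the libraries labelled female, against 6.40, 5.79 and 5.71 in those labelled male, and here the groups overlapped. For single receptors over Fcgr2b they did not overlap: the Fcgr3 ratio was 5.01 to 5.70 in the libraries labelled female against 4.43 to 4.98 in those labelled male, and the Fcgr1 ratio 0.354 to 0.440 against 0.629 to 0.716. Fcer1g over the summed activating receptors was 2.41 to 2.83 in the libraries labelled female and 2.54 to 2.85 in those labelled male, so for the chain the groups overlapped. Exon lengths came from an annotation of the older build, the size of each ratio depends on them, and these ratios carry no test.

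**Figure D3:**
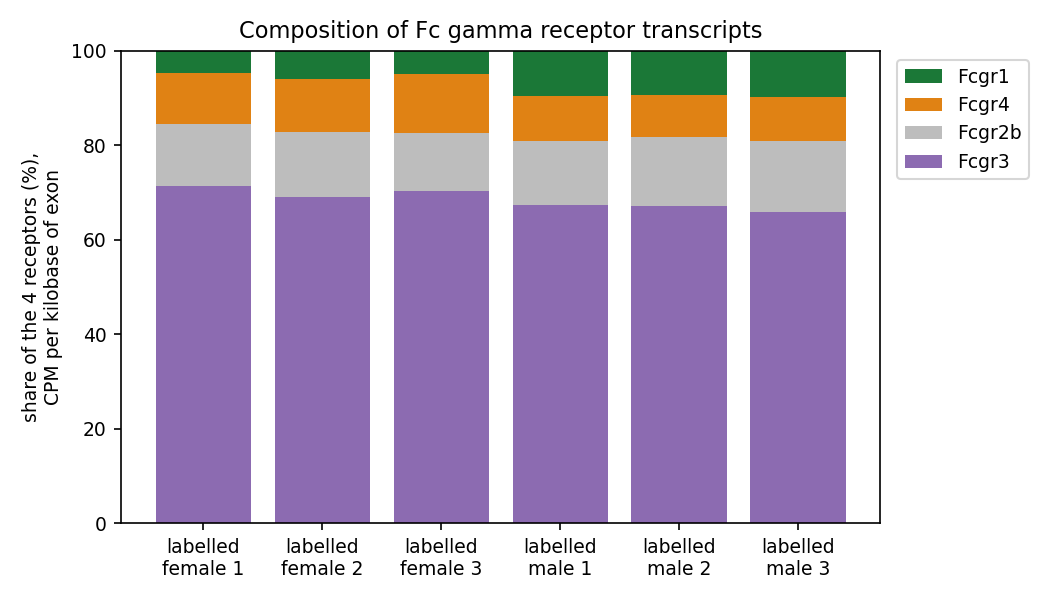
Share of each receptor in the summed level of Fcgr1, Fcgr2b, Fcgr3 and Fcgr4 (vertical axis, percent, from CPM per kilobase of exon) in each of the 6 libraries. Fcgr1 takes 4.65 to 6.08% in the libraries labelled female and 9.27 to 9.69% in those labelled male.

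Of 23 genes downstream of the activating receptors 3 rose and 1 fell in the libraries labelled female, or 17.4% against 13.9% of all genes tested, a share near the background. The median log2 change was 0.07, against 0.00 over all genes. Fgr, a Src-family kinase of myeloid cells, rose to 267 ± 28.0 CPM in the libraries labelled female against 215 ± 10.3 CPM in those labelled male (log2 0.31, adjusted p = 0.00409 by edgeR), and this call held without each library. Pik3cg, the catalytic subunit of phosphoinositide 3-kinase gamma, rose 1.16-fold, Rac2, the small GTPase that activates the oxidase, rose 1.14-fold, and Sh3bp2, an adaptor of Syk and Src kinases, fell 1.20-fold. Syk itself had log2 0.01 (adjusted p = 0.946 by edgeR). Lyn, a Src-family kinase, had log2 0.16 with groups that did not overlap, and it missed the threshold by edgeR (adjusted p = 0.0547) but passed by DESeq2 (0.0144) and limma-voom (0.0415), each of which called 4 genes of this list higher. With any single library labelled male left out 1 gene rose, and the calls of Pik3cg (adjusted p = 0.0845 to 0.110) and Rac2 (0.108 to 0.174) were lost. Pik3cg was also lost without female replicate 1 (0.148) and Rac2 without female replicate 3 (0.0530). Sh3bp2, the gene that fell, was lost without female replicate 2 (0.133), male replicate 1 (0.0812) or male replicate 3 (0.144). A fit lacking female replicate 3 called 7 higher and 3 lower.

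Of 20 genes of inhibitory signalling 3 rose and 2 fell, or 25% against 13.9% of all genes, with a median log2 change of 0.03. Pag1, a membrane anchor of the kinase Csk, rose to 166 ± 6.01 CPM in the libraries labelled female against 127 ± 8.03 CPM in those labelled male (log2 0.39, adjusted p = 0.000202 by edgeR). Siglece, a sialic acid receptor with ITIMs, rose 1.26-fold, and Pirb, an ITIM receptor, rose 1.17-fold. Inppl1, which encodes SHIP2, fell 1.34-fold to 11.9 ± 1.11 CPM, and Lair1, a collagen receptor with ITIMs named after its values were seen, had a log2 change of -0.22 (adjusted p = 0.0192). Inpp5d, the phosphatase recruited by Fcgr2b, had log2 -0.02 (adjusted p = 0.839), and Ptpn6, the phosphatase SHP-1, log2 -0.03 (adjusted p = 0.817). Leaving out female replicate 1, female replicate 2 or male replicate 3 left 1 gene that fell, and leaving out male replicate 1 or 2 left 0 by edgeR. Inppl1 was lost in the fits lacking female replicate 1 or 2 or male replicate 1 or 2 (adjusted p = 0.102 to 0.194), and Pirb in those lacking any single library labelled male (0.0587 to 0.147). Lair1 was lost in the fits lacking female replicate 2 or any single library labelled male (0.0603 to 0.0978).

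Of 10 tested genes for ITAM adaptors and receptors that pair with them, 3 rose and none fell (0 at an unadjusted p under 0.05, and 0 by DESeq2 or limma-voom), and 1 fell without female replicate 3. The 3 are 30% of the list against 13.9% of all genes, and its median log2 change was 0.10. Cd300lb, an activating receptor of myeloid cells, rose to 77.9 ± 6.06 CPM in the libraries labelled female against 48.4 ± 4.89 CPM in those labelled male (log2 0.69, adjusted p = 3.58e-06 by edgeR). Clec4e, the receptor Mincle, which signals through Fcer1g, rose 1.36-fold to 309.9 ± 19.2 CPM (adjusted p = 2.22e-05). Trem1, which pairs with Tyrobp, rose by log2 0.21 (adjusted p = 0.0471) with groups that overlapped, and was named after its values were seen. Its call was lost in the fits lacking female replicate 1, female replicate 3 or any single library labelled male (adjusted p = 0.0567 to 0.193 by edgeR). Tyrobp, the ITAM adaptor DAP12, had log2 -0.04 (adjusted p = 0.747).

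Other receptors of immunoglobulins that passed were all lower. Of 9 tested, 3 fell and none rose (0 at an unadjusted p under 0.05, and 0 by DESeq2 or limma-voom), or 33.3% against 13.9% of all genes, with a median log2 change of -0.31. Fcer2a, the low-affinity IgE receptor CD23 of B cells, fell to 6.03 ± 1.53 CPM in the libraries labelled female against 12.8 ± 1.37 CPM in those labelled male (log2 -1.08, adjusted p = 0.000146 by edgeR). Fcmr, the IgM receptor, fell 1.60-fold. Fcrl1, an Fc receptor-like protein of B cells, fell 1.496-fold, a call lost when male replicate 3 was left out (adjusted p = 0.0548). All 3 are B cell genes by background knowledge, and the B cell markers given beside Fcgr2b fell in the same libraries. Their part in these changes was not tested. The IgE receptor chains Fcer1a and Ms4a2, of mast cells and basophils, had log2 changes of 0.02 and 0.06 and did not pass (adjusted p = 0.956 and 0.802).

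Of 12 transcription factors, 3 fell and none rose by edgeR (1 at an unadjusted p under 0.05, and 0 by DESeq2 or limma-voom), or 25% against 13.9% of all genes, with a median log2 change of -0.11. Stat2 and Irf9, subunits of the factor that binds ISREs, fell to 63.4 ± 4.05 and 87.97 ± 5.20 CPM in the libraries labelled female, against 114 ± 5.20 and 109 ± 9.26 CPM in those labelled male (log2 -0.85 and -0.31, adjusted p = 2.51e-08 and 0.00474 by edgeR). Irf8, a factor of the monocyte lineage, fell 1.23-fold. Spi1, which encodes PU.1, had log2 0.14 (adjusted p = 0.197). The call of Irf9 was lost in the fit lacking male replicate 1 (adjusted p = 0.0510). The fit lacking female replicate 3 called 6 factors lower and 1 higher.

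**Figure D4:**
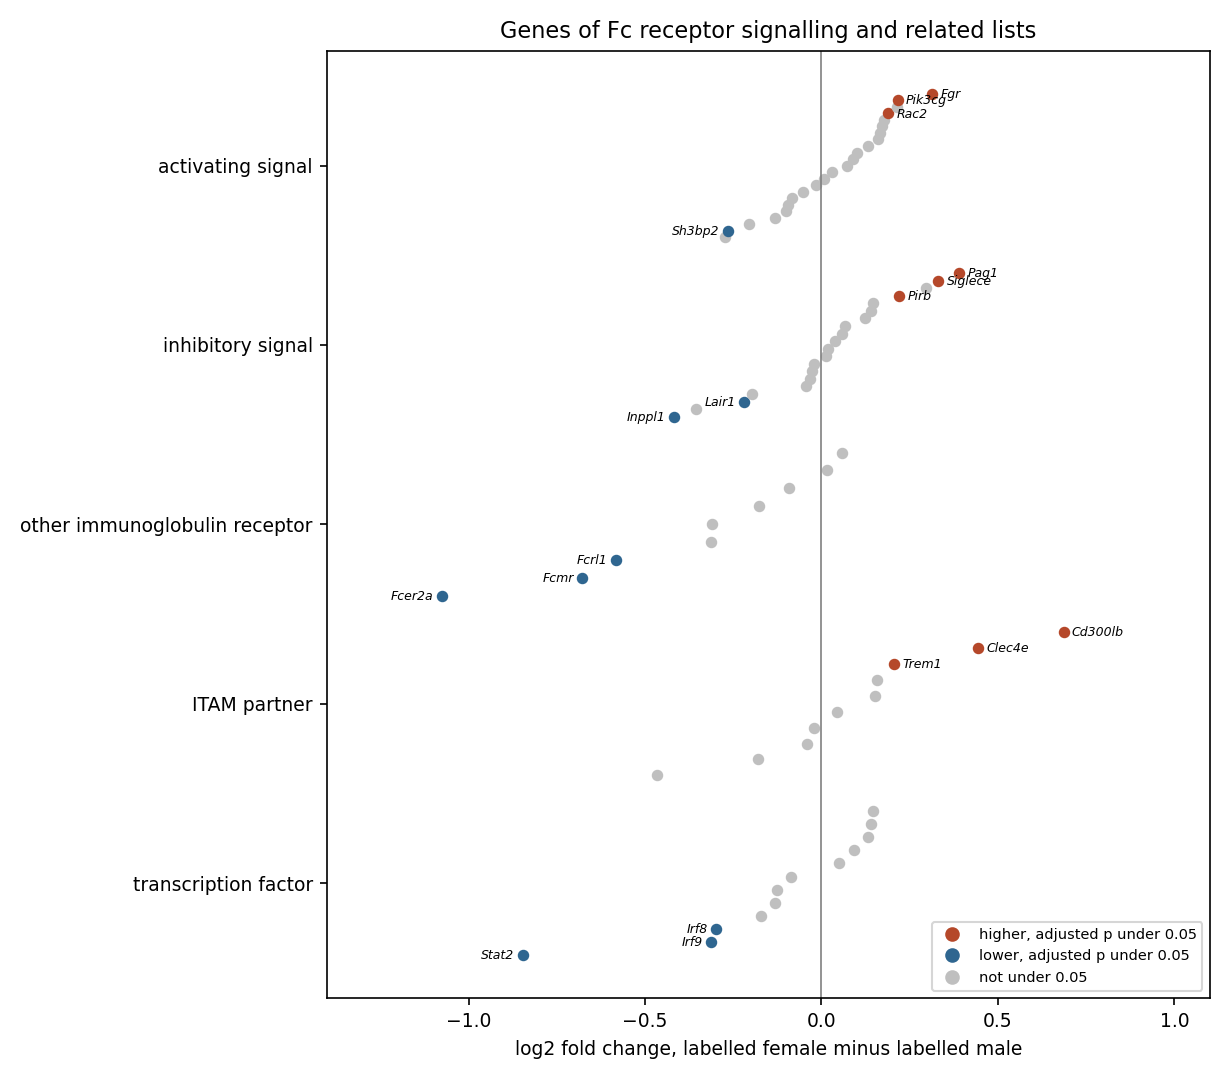
Log2 fold change, libraries labelled female minus libraries labelled male (horizontal axis), of each tested gene in 5 lists around the Fc receptors, with points grouped by list. Colours mark genes past an adjusted p of 0.05, among them Fgr and Cd300lb on the higher side and Fcer2a and Stat2 on the lower side, and most points are grey.

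Monocytes and macrophages also carry Fcgr1, Fcgr3 and Fcgr4. Of 15 markers of these cells 2 rose and 1 fell, or 20% against 13.9% of all genes tested. Their summed level was 2568 to 2607 CPM in the libraries labelled female against 2346 to 2419 CPM in those labelled male, with none at 0. The gap between these sums was no wider than the gap in Ccr2 alone. Ccr2 averaged 879 CPM in the libraries labelled female and 613 CPM in those labelled male. The most abundant marker, Ly6c2, averaged 1126 and 1160 CPM in the same order (log2 -0.04, adjusted p = 0.692 by edgeR). The sum therefore does not show a general rise of these markers. Ccr2 rose (log2 0.52, adjusted p = 5.32e-06), Adgre1 rose (log2 0.24, adjusted p = 0.0354) and Cd68 fell (log2 -0.28, adjusted p = 0.00375), whereas Csf1r had log2 -0.02 (adjusted p = 0.819), all by edgeR. Of 8 dendritic cell markers 5 fell, or 62.5% against 13.9% of all genes tested. The summed level of these markers was 209.9 to 217 CPM in the libraries labelled female against 299 to 315 CPM in those labelled male, with none at 0. Of 8 NK cell markers none passed by edgeR (1 at an unadjusted p under 0.05, and 0 by DESeq2 or limma-voom), with 136 to 164 CPM in the libraries labelled female against 149 to 170.4 CPM in those labelled male and none at 0. The part of these cells in the levels of the receptors was not tested.

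Of 5 plasma cell markers 1 was lower, Irf4, or 20% against 13.9% of all genes tested. Irf4 had 31.3 CPM in the libraries labelled female and 53.97 CPM in those labelled male (log2 -0.79, adjusted p = 1.10e-06 by edgeR). The most abundant, Xbp1, had 251 CPM in the libraries labelled female and 256 CPM in those labelled male (log2 -0.02, adjusted p = 0.832 by edgeR). Of 7 T cell markers 1 was lower, or 14.3% against 13.9% of all genes tested. It was Cd4, also the most abundant (8.99 CPM in the libraries labelled female, 13.2 CPM in those labelled male). None of 6 mast cell and basophil markers, of which Mcpt8 was the most abundant, passed by edgeR (1 at an unadjusted p under 0.05, 1 by DESeq2 and 0 by limma-voom), and 2 of the 9 listed were at 0 in every library. None of 4 eosinophil markers, of which Prg2 was the most abundant, passed by edgeR (2 at an unadjusted p under 0.05, and 0 by DESeq2 or limma-voom), nor did any of 5 endothelial markers, of which Cdh5 was the most abundant (2 at an unadjusted p under 0.05, and 0 by DESeq2 or limma-voom).

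Genes whose profile over the 6 libraries was most like that of a member were found by the root mean square (RMS) difference of centred log2 CPM, among 8741 other genes with a mean of at least 3 log2 CPM. For Fcgr1 they were Rasa4, Gem and Irgm1, with RMS differences of 0.056, 0.065 and 0.081 log2 units. For Fcgr4 they were Cxcl2, S100a6 and Selenon (0.039, 0.041 and 0.059), and for Fcgr3 Gyg, Atp5f1 and Arid3a (0.019, 0.021 and 0.025). For Fcgrt they were Pcyt2, Armc5 and Selenow (0.037, 0.040 and 0.048). For Fcer1g they were Mrpl20, Actb and Gpr137 (0.018, 0.027 and 0.031), and for Fcgr2b Sfr1, Szrd1 and Atl2 (0.014, 0.015 and 0.015). The likeness is over 6 libraries in 2 groups, so any gene with a similar change between the groups scores well.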

How the data were processed

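The authors deposited raw counts per gene for 21955 Ensembl identifiers in each of 6 libraries. Per the labels' protocols, poly-A RNA was reverse transcribed with random primers and sequenced on a NovaSeq, and no strand-marking step is mentioned. GRCm39, cutadapt 1.15 and HISAT2 2.0.5 are listed, per the submitters' processing notes, without their roles. No counting tool is named in what was used here. A GENCODE M21 table named 21847 identifiers, and exon lengths came from the same annotation of GRCm38. Promoters came from RefSeq on GRCm38.p6 and matched all 6 members.

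The test between groups was the quasi-likelihood test of edgeR 4.0.16 (R 4.3.3), after TMM scaling and filterByExpr (minimum count 10), with group as the term and Benjamini-Hochberg adjustment over 11903 genes. The F statistic of a change gave its SE. The pipeline was tested on simulated data. No library was a copy of another: chi-square over its degrees of freedom was 4.10 to 16.5 for pairs of the same group. Alternatives were DESeq2 size factors, upper-quartile factors, DESeq2 1.42.0, limma-voom (limma 3.58.1), no filter, at least 10 CPM in 3 libraries, no mitochondrially encoded genes, each library left out, and the replicate number as a block.

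The members and lists were chosen with earlier results of these data known. Named genes are the members, up to 4 called genes per list with groups that do not overlap and a mean of at least 1 log2 CPM, the most abundant marker of each cell type, 3 genes nearest in profile and 4 Y-linked genes. Other genes were named for their role, after their values were seen. Of 167 list entries 164 had a row. Clec4d, Clec6a and Cxcr2 are not analysed here. Some results are not reported here.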

Additional observations from a re-analysis of the deposited data

How the results depend on the processing

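All 6 members kept their direction under all 14 alternatives, and the calls of Fcgr1 and Fcgr4 and the lack of a call for Fcgr2b and Fcer1g held in each. Under the 8 alternatives that kept every library, the calls of Fcgr3 and Fcgrt held as well. With the replicate number as a block, Fcgr1 had a log2 change of -0.70 (adjusted p = 1.53e-06), and 1007 genes were higher and 914 lower in all; it changed no member's call. Same-numbered libraries of the 2 groups had correlations of -0.04, 0.06 and 0.06 between their deviations from the group means, so the numbers were not taken as pairs. Leaving out 1 library at a time, the log2 change ranged from -0.80 to -0.61 for Fcgr1, 0.02 to 0.05 for Fcgr2b, 0.21 to 0.28 for Fcgr3, 0.37 to 0.53 for Fcgr4, 0.03 to 0.20 for Fcer1g and -0.41 to -0.23 for Fcgrt. Members called higher numbered 1 to 2 and lower 1 to 2. Over all genes 439 to 1439 were higher and 467 to 1269 lower, with the highest counts without female replicate 3, against 868 and 788 with all libraries. In the lists, 1 to 7 activating genes were higher and 0 to 3 lower, 0 to 3 inhibitory genes were lower, 2 to 3 ITAM partners were higher and 0 to 1 lower, and 0 to 1 transcription factors were higher and 2 to 6 lower. The cause of the lost calls was not tested. Upper-quartile factors and the filter of 10 CPM ended the calls of Rac2 (adjusted p = 0.0670 and 0.0575) and Trem1 (0.0595 and 0.0572). Lyn passed by DESeq2 and limma-voom, without a filter (0.0446) and with the block (0.0476). Trem1, Lair1 and Lyn were added to the genes put through these alternatives after their values were seen.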

Other observations

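The receptor genes Fcgr2b, Fcgr4 and Fcgr3 follow each other in that order on chromosome 1, with Fcer1g a few genes further on. Up to 2 protein-coding positions to either side of each member there were 16 other genes, of which 10 were found by symbol among the genes tested. None of the 10 passed by edgeR (3 at an unadjusted p under 0.05, and 0 by DESeq2 or limma-voom), with log2 changes of -0.75 to 0.11 in the libraries labelled female minus those labelled male. The lowest, Cfap126, was near the floor, at 0.647 CPM in the libraries labelled female and 1.09 CPM in those labelled male (SE 0.44). The genes beside Fcgr1 (H3c13, H2bc18, BC107364 and Hjv) were not found by symbol among the genes tested. Their symbols came from RefSeq and those of the counts from GENCODE M21, so a gene under another name would be missed. Nothing is therefore known here of the surroundings of Fcgr1. Sdhc, a subunit of succinate dehydrogenase beyond Fcgr3, averaged 81.4 CPM in the libraries labelled female and 75.3 CPM in those labelled male (log2 0.11, adjusted p = 0.249), and Nosip, near Fcgrt, had log2 -0.19 (adjusted p = 0.132). The order of genes came from RefSeq on GRCm38.p6.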
